A study of Bos grunniens with 6 samples.

Results

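The regions described here are the m6A peaks on genes that carried 6 or more peaks in cattle-yak testis. They were chosen by the number of rows each gene identifier holds in the peak list, so the peak number of these genes is a description and was not tested. There were 987 such peaks among 16186 (6.10%), on 134 of the 8986 genes with a peak (1.49%). For comparison, 10343 peaks lay on 3996 genes with 2 to 5 peaks, and 4856 genes carried 1 peak each.

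MeRIP-seq was performed on testis tissue of 3 cattle-yaks (TES5, TES6 and TES7), which are hybrids of yak and cattle whose males are sterile. All 3 animals were 5 years old and healthy, their testes were obtained by castration, and each gave 1 library of RNA bound by an m6A antibody (IP) and 1 library of the same RNA before binding (input). The libraries were made from poly(A) RNA, and reads of these hybrids were aligned to the yak genome alone. The peak list is 1 list for the group with no value per animal, whereas expression is given as FPKM (reads per transcript length and per library size) for the 3 input libraries.

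N6-methyladenosine is a mark on adenosines inside mRNA, deposited by a complex of METTL3, METTL14, WTAP and VIRMA, removed by FTO and ALKBH5, and bound by reader proteins of the YTH family. It is known mostly from long internal exons and from the stretch around the stop codon and the 3' UTR, and it affects the splicing, decay and translation of a transcript. In the testis, the writers and readers are known to be needed for spermatogonial maintenance and for the passage through meiosis.

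Markers of testis cell types were checked first. All 3 animals expressed the Sertoli cell markers *SOX9* (26.7, 27.5 and 28.4 FPKM in TES5, TES6 and TES7) and *KRT18* (42.1, 42.6 and 47.2), and the Leydig cell gene *STAR* (100.2, 107.7 and 111.9). The meiotic gene *SYCP3* was found at 24.4, 18.0 and 19.8 FPKM, and *DMC1* varied more, at 21.4, 8.72 and 15.4. None of 8 spermatid marker symbols (such as *PRM1* and *TNP1*) was attached to a peak, and since symbols are paired with identifiers only for genes with a peak, their expression was not analysed here. Of the 5 peritubular myoid markers, 1 was among the genes with 6 or more peaks, namely *MYH11*, the myosin heavy chain of smooth muscle. None was among the 6 Sertoli, 1 Leydig, 4 spermatogonial and 5 spermatocyte markers with a peak. Over all genes with a peak the share was 1.49%, so these counts are too small to compare cell types. In bulk tissue, fewer cells of a type and less RNA per cell cannot be told apart.

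The list fell off steeply with peak number. Just outside the threshold, 161 genes carried 5 peaks, of which *HSP90AB1*, a cytosolic chaperone, was the most highly expressed (214.9, 203.8 and 230.0 FPKM). Just inside it, 63 genes carried 6 peaks, led in expression by *SON* (52.7, 53.8 and 62.7 FPKM), a splicing cofactor of nuclear speckles. A further 32 genes carried 7 peaks, 13 carried 8 and 26 carried 9 or more. The genes lay on 30 chromosomes. Chromosome 5 held the highest number, 9 of its 470 genes with a peak (1.91%), and chromosome X held 3 of 312 (0.962%). The share over all genes with a peak was 1.49%, and the highest was 4 of 112 on chromosome 28 (3.57%).

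Of the 4 genes with the most peaks, 3 were cytoskeletal linkers, which tie actin, microtubules and intermediate filaments to each other and to the nucleus. *SYNE2* (nesprin-2, which joins the nuclear envelope to the cytoskeleton) held 18 peaks on the plus strand of chromosome 11, from 65556636 to 65857618 in LU_Bosgru_v3.0, with 15 annotated as exon and 3 as 5' UTR. Its exon peaks fell on 15 separate exons, 1 of which belongs to a second identifier named *SYNE2*. *MACF1*, a linker of actin and microtubules, held 17 peaks in the exon class, 5 of which shared exon 38 of 103. *DST*, its close relative, held 13 exon peaks on 12 exons. *DSP* (desmoplakin of the desmosome) held 10, and *SPTB* (a spectrin of the membrane skeleton) and *PLEC* (plectin) held 6 each.

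Expression of these linkers was moderate. *SYNE2* was measured at 6.01, 9.01 and 8.39 FPKM in TES5, TES6 and TES7, a mean of 7.80 ± 1.58 (SD, n = 3). *MACF1* reached 10.9, 14.8 and 15.6 FPKM (13.8 ± 2.55), and *DST* 15.4, 20.1 and 22.5 FPKM (19.3 ± 3.62). TES5 was the lowest animal for all 3 genes. *DSP* differed, with TES6 lowest (3.06, 1.64 and 3.16 FPKM).

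In several of the genes with 10 or more peaks, a long 5' part of the locus, introns included, was free of listed peaks. The first peak of *SYNE2* was centred 78.4 kb from the 5' end of a 300983 bp locus, and that of *MACF1* 99.2 kb into 257457 bp. In *DST*, the first peak was centred 248.8 kb into 454290 bp, measured on the longer of its listed transcripts, with 95 exons. For the shorter, with 44 exons, 2 of the peaks were annotated to exon 1. The same was seen in *AKAP13*, an anchor of protein kinase A (191.6 kb into 342348 bp), and in *KMT2C*, a histone H3 lysine 4 methyltransferase (182.9 kb into 284760 bp). Shorter loci showed it too, such as *HIVEP1* (97.0 kb into 150224 bp) and *BSN* (53.1 kb into 77063 bp). These distances include introns and are not positions on the spliced mRNA. The first peak was annotated to exon 19 of 116 in *SYNE2*, exon 29 of 95 in *MACF1* and exon 20 of 95 in *DST*. It was annotated to exon 7 of 37 in *AKAP13*, exon 15 of 62 in *KMT2C* and exon 4 of 13 in *BSN*. *DNAH11*, an axonemal dynein with 9 peaks on 403447 bp, had a peak centred 1.496 kb from the 5' end. The peaks of *ALMS1*, *ZFHX3* and *PCDHGA4* also began near the 5' end, as the map of peaks along the genes shows.

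**Figure D1:**
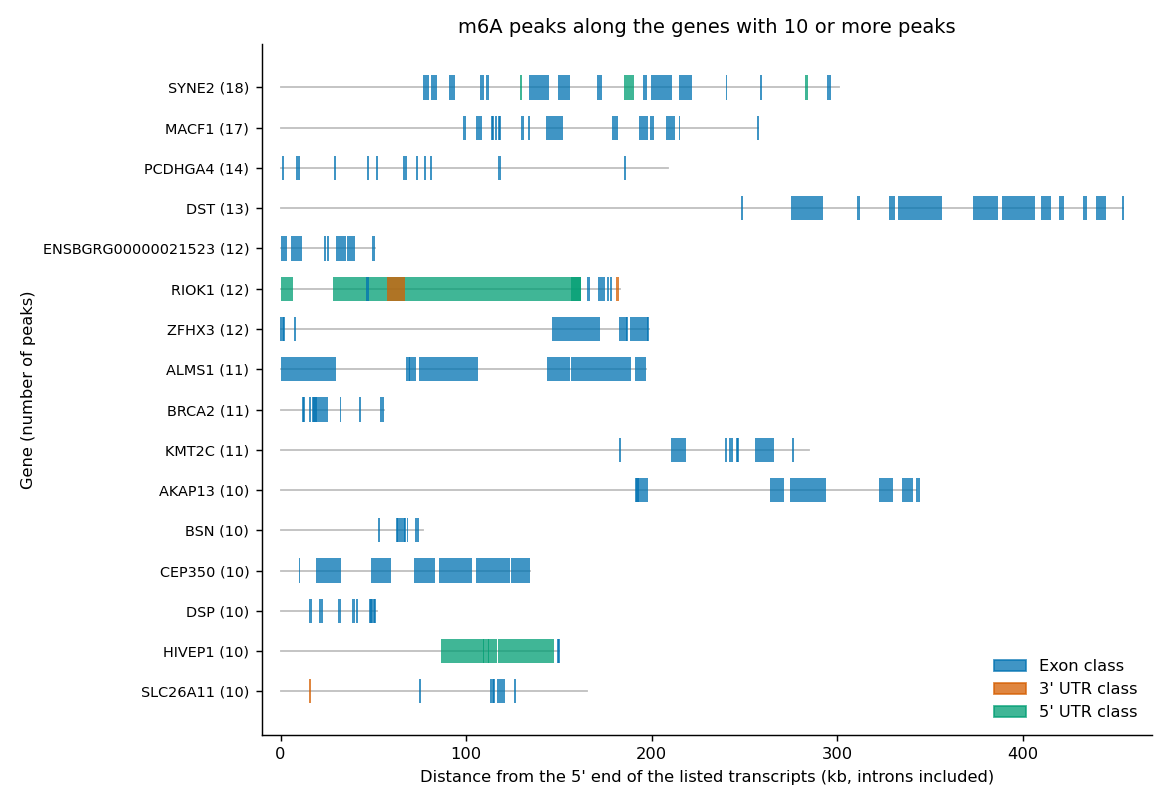
Positions of the peaks along the genes with 10 or more peaks, in kb from the 5' end of the listed transcripts with introns included. Grey lines are the listed loci, coloured blocks are peaks by annotation class, and peaks under 1 kb are drawn 1 kb wide. The peaks of *SYNE2* (18), *MACF1* (17) and *DST* (13) lie in the middle and 3' parts of the loci.

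The remaining genes with 9 or more peaks belonged to several groups. *PCDHGA4*, of the gamma protocadherin cluster of cell adhesion genes, held 14 peaks of 149 to 401 bp on chromosome 8, although its FPKM was low in every animal (0.593, 0.633 and 0.659). For 4 of these peaks, the annotated exon belonged to other identifiers. Of the 14, 9 were annotated to a first exon, at positions from 1.42 to 118.5 kb along the locus. They therefore lay on different first exons, and the 14 peaks need not lie on 1 mRNA. The transcriptional repressor *ZFHX3* held 12 peaks, and the ribosome assembly kinase *RIOK1* held 12. *ALMS1* of the centrosome, *BRCA2* of homologous recombination and *KMT2C* held 11 each. An identifier with no symbol, ENSBGRG00000021523, held 12 peaks on chromosome 13 but has no FPKM, as did 3 other genes without a symbol, so 130 of the 134 genes have an expression value.

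*RIOK1* and *HIVEP1* showed how wide peaks enter the count. The 12 peaks of *RIOK1* included 1 of 133718 bp, lay over 81.6% of the locus, and became 7 when overlapping peaks and those at most 100 bp apart were merged. *HIVEP1*, a zinc finger factor that binds enhancers, held 10 peaks, of which 8 were in the 5' UTR class. Those 8 were centred 64.6% to 88.1% of the way along the listed transcript, so the 5' UTR class here does not mean the 5' end of the gene. Such positions are genomic, with introns included. Over all genes with 6 or more peaks, 47.4% of 76 peaks of the 5' UTR class (95% Wilson interval 36.5% to 58.4%) were centred in the first quintile of the transcript, against 67.4% of 930 on genes with 2 to 5 peaks and 54.9% of 421 on genes with 1 (50.1% to 59.6%). The intervals of the first and last of these shares overlap.

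Among the 12 families of genes listed for comparison, 86 of the 134 genes were found. The share of the symbols with a peak that carried 6 or more is to be read beside 1.49% for all genes with a peak. The lists hold many long genes and were drawn up with these peaks known, so their shares carry no test. It was 6 of 13 for cytoskeletal linkers (46.2%), 13 of 32 for RNA processing and ribosome assembly (40.6%), 8 of 22 for membrane traffic (36.4%) and 11 of 34 for the centrosome and ciliary base (32.4%). It was 9 of 30 for zinc finger transcription factors (30.0%), 7 of 26 for adhesion and matrix proteins (26.9%), 20 of 87 for chromatin regulators (23.0%) and 4 of 22 for HECT and other giant ubiquitin ligases (18.2%). The lowest shares were 1 of 7 axonemal dyneins (14.3%), 3 of 26 kinetochore and spindle genes (11.5%), 3 of 41 genes of meiosis, the germline and DNA repair (7.32%), and 1 of 16 genes of the m6A machinery (6.25%).

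In the centrosome group, *ALMS1* and *CEP350* held 11 and 10 peaks, *CEP290* of the ciliary transition zone 9, and *CROCC* (rootletin of the ciliary rootlet) 8. *CEP290* carried 1 peak on each of 9 exons at 1.67, 1.58 and 1.64 FPKM. *PCM1*, the scaffold of centriolar satellites, carried 1 peak on each of 7 exons at 15.7, 17.9 and 16.8 FPKM. Every animal was higher for *PCM1* than for *CEP290*, which held more peaks. Of the 11 genes of this group with 6 or more peaks, *CCHCR1* had the widest spread between animals (11.0, 7.35 and 4.94 FPKM).

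Chromatin regulators formed the largest group by number, with 139 peaks on 20 genes. *KMT2C* led with 11 peaks, followed by *ASH1L*, a histone H3 lysine 36 methyltransferase, and *CHD9*, a chromodomain helicase, with 9 each. The paired acetyltransferases *CREBBP* and *EP300* held 6 peaks each, all in the exon class, and differed in expression. *EP300* was measured at 21.6, 27.4 and 29.4 FPKM, and *CREBBP* at 6.06, 7.89 and 7.61. Of the 6 *CREBBP* peaks, 3 shared its last exon, exon 33. *BPTF*, of the NURF remodelling complex, stood apart, with 5 peaks annotated as 3' UTR and 1 as 5' UTR.

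Genes of RNA processing included the most highly expressed gene of all 134, *SON*. *SPEN*, a repressor with RNA binding domains, and *ZFC3H1*, of nuclear RNA decay, held 7 peaks each. *UTP20* of the small ribosomal subunit processome carried 1 peak on each of 6 exons (8.94, 12.3 and 11.4 FPKM). In the ubiquitin ligases, *BIRC6*, an inhibitor of apoptosis, held 8 peaks on 8 separate exons. It was expressed at 6.63, 9.50 and 9.39 FPKM, with TES5 lowest.

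From the list for meiosis, the germline and DNA repair, 3 genes were included, and in each most peaks were annotated to 1 exon. *BRCA2* on the plus strand of chromosome 15 (53783314 to 53839085) held 11 peaks, 6 of them in exon 10 of 26. These 6 began at 53799075 and ended at 53808878, and 5 of the 6 were 150 to 600 bp wide. *TEX15*, which is needed for meiotic recombination and transposon silencing in male germ cells, held 7 peaks on chromosome 28, 5 of them in exon 2 of 11 from 27989832 to 27995426. *REV3L*, the catalytic subunit of DNA polymerase zeta, held 6 peaks, 5 of them annotated to exon 13 of 32, of which 1 was 13338 bp wide with introns included.

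These 3 genes were expressed at low to moderate levels. *BRCA2* was measured at 2.20, 2.52 and 2.61 FPKM, *TEX15* at 4.42, 3.87 and 5.16, and *REV3L* at 7.52, 7.62 and 7.74. The animals differed least for *REV3L*, with a coefficient of variation of 1.42%. The synaptonemal complex genes *SYCP1* and *SYCP2* held 3 peaks each and *SYCP3* held 1.

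Of the m6A machinery, *VIRMA*, the scaffold of the writer complex, held 6 peaks, 5 on separate exons from exon 5 to exon 21 of 24 and 1 in the 3' UTR class. Its FPKM was 24.3, 24.2 and 27.1 in the 3 animals. The next gene of this list, *PRRC2A*, held 3 peaks, and the erasers *FTO* and *ALKBH5* held 2 each. Of the spindle genes, the motor *CENPE* held 9 peaks on 9 exons at 1.32, 1.31 and 1.03 FPKM, whereas the nuclear pore protein *TPR* held 6 peaks on 6 exons at 22.1, 19.5 and 20.8 FPKM.

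The peaks of the 134 genes lay mostly in the exon class of the annotation. Exon class peaks made up 84.0% of the 987 (81.6% to 86.1%), against 71.1% on genes with 2 to 5 peaks and 66.0% on genes with 1. The 3' UTR class took 8.31% (6.74% to 10.2%), against 19.9% and 25.3%. The 5' UTR class took 7.70%, 8.99% and 8.67%, with overlapping intervals. These intervals cover counting error only, and peaks of 1 gene share their source.

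The same order of the 3 shares was seen in each of the 5 quintiles of the genomic span of the listed transcripts, introns included. The length of the spliced mRNA was not analysed. In the quintile with the longest span, the exon class held 84.5% of 563 peaks on 72 genes with 6 or more peaks (81.3% to 87.3%). It held 73.8% on genes with 2 to 5 and 65.9% on genes with 1. The 3' UTR class held 7.46%, 17.6% and 26.2%. In the middle quintile, with 18 genes of 6 or more peaks, the exon shares were 71.9% (63.3% to 79.1%), 68.5% and 63.9%, and the first interval held the second share. Genes with more peaks also had more exons, and the part of exon number in this difference was not tested.

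Gene by gene, 68 of the 134 had all of their peaks in the exon class, 47 had a peak in the 3' UTR class, 39 had 1 in the 5' UTR class, and 16 had all 3 classes. The 5 genes with no exon class peak included *BPTF*.

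Positions along the listed transcript were measured on the genome, with introns included. Of 961 peaks that overlapped this transcript, 35.8% (32.8% to 38.9%) were centred in its last quintile. The share was 44.5% on genes with 2 to 5 peaks and 46.1% on genes with 1. Peaks of the exon class fell in the last exon in 12.4% of 829 cases (10.4% to 14.8%), where equal chances for each exon would give 9.06%. On genes with 2 to 5 peaks, these values were 16.5% and 15.3%, and on genes with 1 peak 23.6% and 22.6%. For transcripts of 3 or more exons, they were 8.88% and 6.23% on genes with 6 or more peaks. They were 10.8% and 9.94% on genes with 2 to 5, and 14.3% and 13.0% on genes with 1. Equal chances ignore exon length, and peaks of the 3' UTR class are not counted, so last exon use as a whole is not measured. The classes and quintiles are drawn in the plot of class and position.

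**Figure D2:**
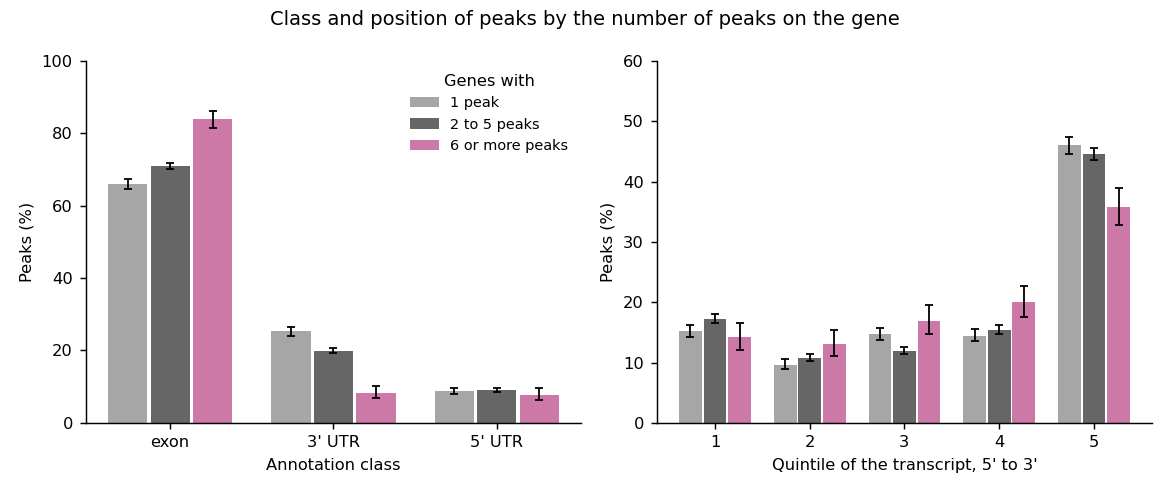
Share of peaks (%) by annotation class (left) and by the quintile of the listed transcript, from 5' to 3', that holds the peak centre (right), for genes with 1, 2 to 5, and 6 or more peaks. Quintiles are of the genomic span, introns included. Bars are shares and lines are 95% Wilson intervals, which cover counting error only. Genes with 6 or more peaks have the highest exon share (84.0%) and the lowest share in the last quintile (35.8%).

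The width of a peak is its span on the genome, introns included. The median was 1030 bp on these genes, 1035 bp on genes with 2 to 5 peaks and 994.5 bp on genes with 1, and 49.6%, 49.7% and 50.1% were at most 1000 bp. Very wide peaks were fewer, with 9.93% over 10000 bp (8.22% to 12.0%) against 14.9% and 14.3%. The widest lay on *ZNF407* (205679 bp), a zinc finger gene, and the narrowest on *NHSL2* (144 bp). In 9 genes all peaks were at most 1000 bp, and in 4 genes none was.

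Many peaks shared an exon, which a gene with more peaks has more chances to show. Of the 829 exon class peaks, 36.9% (33.7% to 40.3%) lay on an exon that carried at least 2 peaks of the gene, 23.4% on an exon with at least 3, and 15.4% on an exon with at least 4. On genes with 2 to 5 peaks, 19.1% lay on an exon with at least 2. Peaks on exons with at least 3 were narrow, with 85.1% of 194 at most 1000 bp (79.4% to 89.4%), against 30.2% of 523 peaks that were alone on the exon (26.4% to 34.3%). The same contrast was seen on genes with 2 to 5 peaks, at 91.7% of 338 against 35.4% of 5948. Separate peaks fit on the same exon more readily when they are short, and widths include introns. Sharing an exon therefore favours narrow peaks in any group of genes, and the contrast in width is only a description.

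An exon with 3 or more peaks was found in 43 genes, and in 37 of these the exon was the gene's own. In the other 6 it carried a different identifier. *ZNF292*, a zinc finger transcription factor, had all of its 7 peaks in exon 8 of 8, between 26582283 and 26589148 on chromosome 10. *IRS1*, the docking protein of the insulin receptor, had 6 peaks of 149 to 348 bp in its only listed exon. *USF3*, a basic helix-loop-helix factor, had 5 peaks in exon 5 and 4 in exon 4 of 5. *AKAP13*, *ALMS1*, *DSP*, *MACF1*, *QSER1*, *SYNM*, *ZNF407* and the identifiers listed as *FBXO42* and *RUSC2* also had 5 peaks in 1 exon of the gene. Of the *QSER1* peaks annotated to that exon, 1 was 19013 bp wide with introns included. In 24 genes, as many peaks shared 1 of the gene's own exons as lay elsewhere or more, whereas in 23 genes each peak lay on an exon of its own.

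**Figure D3:**
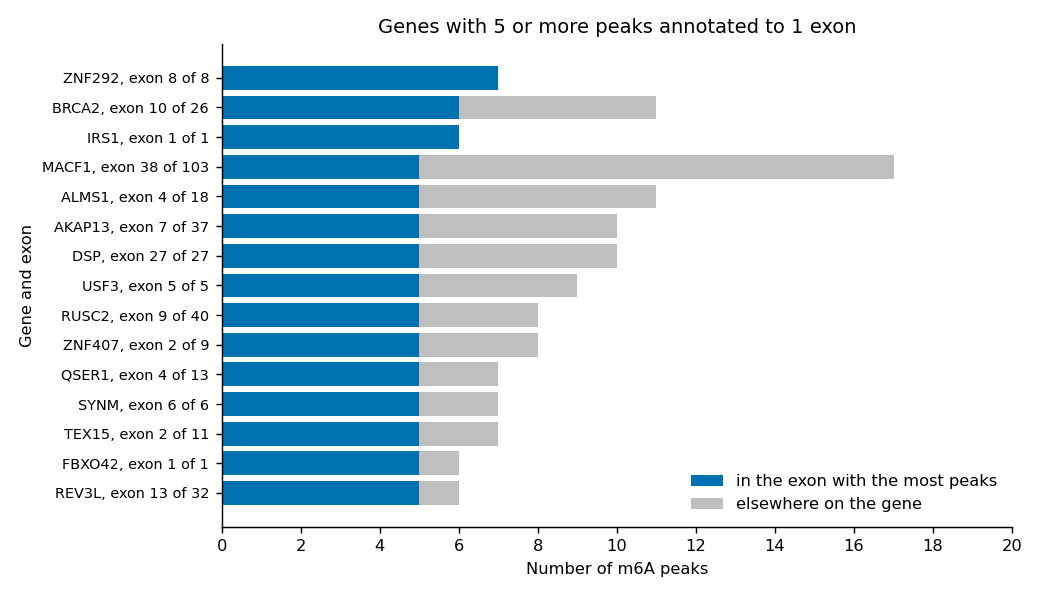
Number of m6A peaks in the exon with the most peaks (blue) and elsewhere on the gene (grey), for the genes with 5 or more peaks annotated to 1 of their own exons. *ZNF292* has all 7 peaks in 1 exon, and *MACF1* has 5 of 17.

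Neighbouring peaks were closer than on genes with 2 to 5 peaks, which the choice of genes by peak number favours, so the gaps are a description. Of 853 neighbouring pairs on the same gene, 3.28% overlapped and 16.2% lay at most 100 bp apart, against 2.13% and 9.58% of 6347 pairs on genes with 2 to 5 peaks. A further 27.3% lay over 100 and up to 1000 bp apart, and 21.5% over 10000 bp. The median gap was 1692 bp, against 3597 bp. When peaks that overlapped or lay within 100 bp were merged, 822 of the 987 intervals were left, and 79 of the 134 genes still had 6 or more.

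These were long genes with many exons. The median span was 96387 bp, against 42150 bp for genes with 2 to 5 peaks and 19109 bp for genes with 1, and the median number of listed exons, over genes with an exon class peak, was 25, 12 and 8. Peaks lay over a median of 25.6% of the span, against 18.0% and 8.31%, which a higher number of peaks also favours. The largest share was on *KIAA2026* (97.5% for 7 peaks), followed by the identifier listed as *MICOS13* (88.9%), *RIOK1* (81.6%), ENSBGRG00000002067 (81.3%) and *BPTF* (81.1%). From the shortest to the longest quintile of genes with a peak, the share with 6 or more peaks went from 0.334% to 4.01%, and from the fewest to the most exons from 0.578% to 5.64%.

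Expression showed no such order. The share of genes with 6 or more peaks was 1.42%, 1.77%, 2.05%, 1.31% and 0.855% from the lowest to the highest quintile of mean FPKM, and the highest value was in the middle quintile. The intervals of neighbouring quintiles overlapped, whereas those of the middle (1.49% to 2.83%) and the highest (0.519% to 1.41%) did not.

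**Figure D4:**
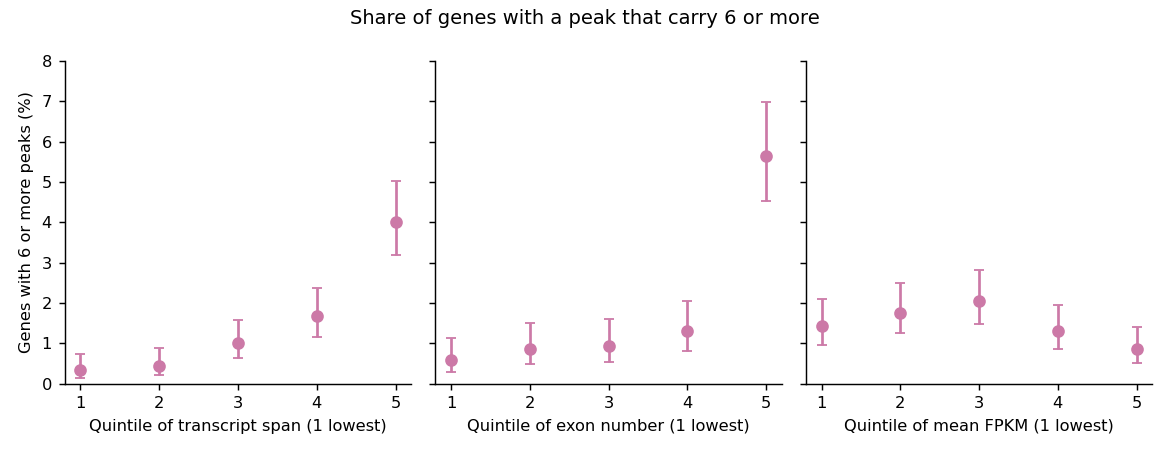
Share (%) of genes with a peak that carry 6 or more peaks, by quintile of transcript span (left), number of listed exons (middle) and mean FPKM (right). Points are shares and lines are 95% Wilson intervals. The share rises with span (to 4.01%) and exon number (to 5.64%), and is highest in the middle quintile of FPKM (2.05%).

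The median of the mean FPKM over the 130 genes was 6.12, with medians of 5.48, 6.32 and 6.36 in TES5, TES6 and TES7. It was 7.42 for genes with 2 to 5 peaks, 7.40 for genes with 1 and 0.200 for genes with no listed peak. In each of the animals, 122 of the 130 genes reached an FPKM of 1 (93.8%, 88.3% to 96.8%), against 91.0%, 83.4% and 31.0%.

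After *SON*, the highest means were found for the identifier listed as *MICOS13* (38.4, 32.6 and 32.6 FPKM), *MYH11* (26.9, 30.8 and 30.6), *EP300* and *BAZ1A*, a subunit of the ACF remodelling complex (24.2, 28.3 and 25.8). *MYH11* carried 6 exon class peaks between exon 1 and exon 34 of 41. The lowest means belonged to the identifiers listed as *ZFP64* (0, 0.134 and 0), *SERHL2* (0.239, 0.188 and 0.229), *RPN1* (0.251, 0.371 and 0.416) and *ZNF444* (0.639, 0.521 and 0.344), and to *CRYBG1* (0.533, 0.567 and 0.507). For *ZFP64* and *RPN1*, none of the 6 peaks overlapped the listed transcript, so these values belong to transcripts that hold none of the listed peaks.

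The 3 animals were close for most of these genes, with a median coefficient of variation of 10.1% over the 122 expressed ones. The largest was 72.6% for *COL12A1*, a fibril-associated collagen (1.12, 2.75 and 5.68 FPKM), with TES5 lowest and TES7 highest. *TMC4* was high in TES7 alone (2.11, 1.94 and 5.23). *CCDC158* went the other way, with TES5 highest (4.59, 3.57 and 1.79). The smallest spread was that of *KIAA2026* (7.81, 7.91 and 7.89).

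TES5 was the lowest animal for 77 of the 122 genes (63.1%), against 47.8% of expressed genes with 2 to 5 peaks, 35.8% of those with 1 and 37.6% of all 11402 expressed genes. The median log2 difference of TES5 from the mean of the other animals was -0.16 for these genes and 0.01 over all expressed genes. The share also moved with genomic span, introns included. Among all expressed genes with a peak, TES5 was lowest for 30.6% of the shortest quintile and 58.3% of the longest, and within the longest quintile for 68.1% of 69 genes with 6 or more peaks and 61.6% of 958 with 2 to 5. The part of transcript length, RNA quality and cell composition in this difference was not tested.

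**Figure D5:**
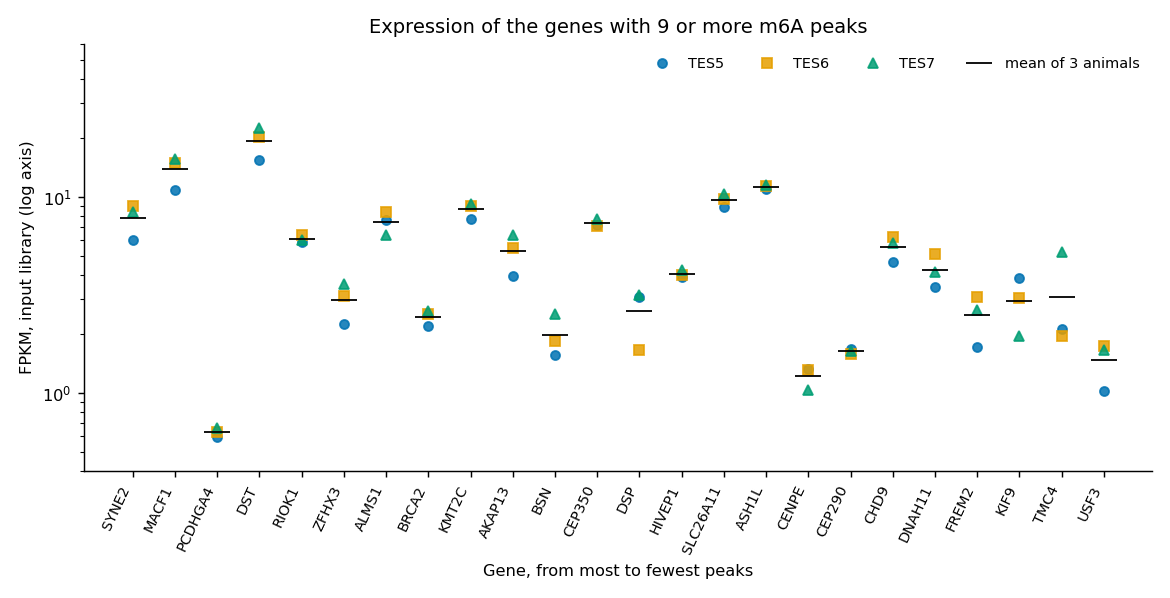
FPKM in the input libraries of TES5 (circles), TES6 (squares) and TES7 (triangles) for the 24 genes with 9 or more peaks and an FPKM, on a log axis, ordered by peak number. Bars are the means of 3 animals. *PCDHGA4* is the lowest (0.628) and *DST* the highest (19.3), and neither is at an end of the order by peak number.

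The assignment of peaks to genes limits some of these counts. Of the 987 peaks, 26 (2.63%) did not overlap the listed transcript, against 1.24% of all peaks. Of the 829 exon class peaks, 35 (4.22%) carried the exon of a different identifier, against 2.77% of all exon class peaks. In 8 genes, peaks with either trait were as many as the others or more. These were *ZFP64*, *RPN1*, *SLC26A11* (9 of 10), *KIF9* (6 of 9), *NGDN*, *ZNF583*, *POLR2M* and *CLEC16A*. A symbol was also carried by a second identifier with a peak for 30 of the 134 genes, which was not compared with all genes. The symbol *UBE2M* stood on 17 identifiers with 45 peaks and *ZNF773* on 10 with 26, so that such names can stand for related copies. For some identifiers, those introduced with "listed as" among them, the study's other peak table gives no symbol or a different one, so the name, and its place in a family count, may not be that gene's.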

How the data were processed

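Total RNA from the testes of 3 cattle-yaks gave 3 IP and 3 input libraries. As the study's methods and the submitters' processing notes state, Trimmomatic trimmed the reads, SortMeRNA removed those of ribosomal RNA, and HISAT2 2.0.4 aligned the rest to LU_Bosgru_v3.0. The authors called peaks in MeTDiff against the input and annotated these in ChIPseeker. The deposited peak list holds positions, widths and annotation but no score, fold or value per animal. For expression, the authors deposited FPKM values of 20953 genes. The program that made them is not given in the sources used here. FPKM values keep no read numbers, so the depth is unknown from the files and no interval was given for a gene.

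The peaks and lists were chosen with earlier results of these data known. Gene identifiers were counted over the peak list, class and exon number were read from the annotation, and the identifier was joined to the FPKM table. Shares have 95% Wilson intervals. FPKM is given per animal and as mean ± SD. With 1 condition, 1 peak list and 3 animals, no test between groups was made. Besides the traits given at the start, the labels say only that the animals are separate. The genes named were those with 9 or more peaks, those in 12 lists of families, the 5 highest and lowest in FPKM, the widest and narrowest peaks, the 5 with the largest covered span and with the most peaks per exon, shared symbols, and the most expressed genes at 6 and 5 peaks. Named outside this rule, after their values were seen, were genes with the largest or smallest spread between animals, genes with 5 or more peaks in 1 exon, genes whose peaks miss the listed transcript or carry another identifier's exon, and list genes with fewer peaks.

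Alternatives were a minimum of 5 or 7 peaks, merged or narrow peaks, other ways to count genes, an FPKM filter, the 2 genes with the most peaks left out, rescaled libraries and each animal left out. The counting was tested on simulated data. The analysis ran in Python 3.11.15 (pandas 2.3.3, numpy 2.4.6), with intervals from SciPy 1.17.1 and plots from matplotlib 3.10.9. No genome of this build was used, so no sequence, motif or distance to a stop codon is given. The values of 1 gene are not reported here.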

Additional observations from a re-analysis of the deposited data

How the results depend on the processing

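The number of genes with many peaks depended on how peaks and genes were counted. With a minimum of 5 peaks it was 295 genes with 1792 peaks, and with a minimum of 7 it was 71 with 609. It was 79 genes with 576 intervals after merging within 100 bp, 26 genes with 187 peaks when only peaks of at most 1000 bp were counted, and 209 with 1642 when peaks were counted by symbol. The exon class share was 81.1% with a minimum of 5 peaks. The 3' UTR class share was 10.5% with a minimum of 5, 6.24% with a minimum of 7 and 11.2% among peaks of at most 1000 bp, where the last exon held 23.4% of exon class peaks. When genes under an FPKM of 1 in any animal were dropped, 46.5% of peaks were at most 1000 bp. The median FPKM was 5.38 with a minimum of 7 peaks, and 96.9% of the genes reached an FPKM of 0.5. The other 42 of 60 values moved by less than the interval or the spread between animals, or, for counts, stayed within 1.5 times. They include those without the 8 genes for which as many peaks or more missed the listed transcript or carried another identifier's exon, an alternative chosen after seeing the data. With each animal left out, the median FPKM was 5.89 to 6.26 and the share of genes that reached an FPKM of 1 was 93.8% to 94.6%. No paired analysis was possible because FPKM covers the input libraries only and peaks have no value per animal.

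Without scores or read numbers, weak and strong peaks could not be told apart, and the exonic length of a peak was not analysed here. Peaks of 1 gene are not independent, so intervals over peaks are too narrow.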
